A study of Mus musculus with 6 samples.

Results

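The genes described here are 10 regulators and targets of FGF-ERK signaling: the PEA3 ETS transcription factors *Etv1*, *Etv4* and *Etv5*, the Sprouty genes *Spry1*, *Spry2* and *Spry4*, the Spred genes *Spred1*, *Spred2* and *Spred3*, and *Il17rd*, which encodes the inhibitor Sef. They were chosen by gene name, with earlier results of these data known, as 10 of the 55809 genes in the deposited count table. Poly(A) RNA of HC11 cells, a line of mouse mammary epithelial cells that the study uses as a luminal line, was sequenced from 3 libraries of cells kept in medium with BMP7 (BMP7) and 3 libraries of cells kept in medium that lacked it (Ctrl). The labels name no transgene or deletion, and the methods describe HC11 cells that were starved and then given BMP7 for a shorter or a longer time, without saying which time was sequenced. All 6 libraries come from this 1 line, and nothing in the labels says that they came from separate cultures, so p-values measure the spread between these libraries, which may be technical. Libraries are named by their column numbers in the count table, which are Ctrl 1, 2 and 3 and BMP7 1, 3 and 4.

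PEA3 factors are ETS family activators whose transcription rises when FGF receptors signal through ERK, and they are widely read as a record of FGF activity. In the mammary gland, FGFs from the stroma drive branching and expansion of the epithelium, and the study itself used *Etv5* and *Etv4* as readouts of FGF signaling. Sprouty and Spred proteins are induced by, or sit beside, the same signal and dampen it at Ras and Raf, while Sef is a membrane protein that holds back FGF receptors and ERK. Several layers regulate the PEA3 factors themselves, among them the DNA-binding repressor Capicua (encoded by *Cic*), which ERK inactivates, and the ubiquitin ligase COP1, which marks PEA3 proteins for destruction. The comparison of BMP7 with Ctrl therefore asks whether the transcripts of this feedback layer differed when a BMP ligand, rather than an FGF, was given.

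Fragments counted per library ran from 14607938 to 23748970, with the fewest in BMP7 1. Of all genes, 15733 passed edgeR's filter on expression and entered its quasi-likelihood test. A gene was called when its Benjamini-Hochberg adjusted p over all genes tested was under 0.05 and its fold change was above 1.2. The canonical BMP targets *Id1* and *Id3* were called higher with BMP7, with log2 fold changes of 4.28 and 6.31. Of the 9 epithelial markers listed, 8 entered the test. With BMP7, 1 of them rose (*Krt14*, log2 fold change 0.43) and 3 fell (*Krt18* -0.67, *Epcam* -0.42 and *Cdh1* -0.27). Among all genes tested, 5.99% were called higher and 5.38% lower. Levels are given in CPM, the fragments of a gene per 1000000 fragments of the library total after TMM adjustment. *Epcam* was at 639.6 CPM in Ctrl and the basal keratins *Krt5* and *Krt14* at 2643 and 3489 CPM, and the luminal keratins *Krt8*, *Krt18* and *Krt7* at 63.2, 49.5 and 17.2 CPM. *Krt19*, another luminal keratin, was at 0.0979 CPM and too low to test. Transcripts of both basal and luminal keratins were thus present in these cells, with those of the basal keratins at the higher CPM.

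Of the 10 genes, 8 were tested, and 4 of them fell with BMP7 (*Etv5*, *Il17rd*, *Spry1* and *Etv4*), 1 rose (*Spred2*) and 3 were not called (*Spry2*, *Spred1* and *Spred3*). Among all genes tested, 5.38% were called lower and 5.99% higher. Shares of all genes are given here as description only, because the 10 genes were chosen with earlier results known. By adjusted p alone, the counts of the 8 genes were also 4 and 1 (6.42% and 7.33% of all genes tested), by DESeq2 they were 3 and 1 (4.70% and 5.89%), and with edgeR's glmTreat against a fold change of 1.2 they were 2 and 1 (1.61% and 3.14%). *Etv1* and *Spry4* stayed below the filter with at most 10 and 3 counts in any library. The BMP7 libraries lay entirely below the Ctrl libraries for 6 of the 8 genes and entirely above them for 1, against 15.1% and 14.8% of all genes tested. For *Spry2*, among the 6, the groups all but touched. The median log2 fold change of the 8 genes was -0.31, beside -0.0062 over all genes tested. In RNA from whole cultures, fewer expressing cells and less RNA per cell cannot be told apart.

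**Figure D1:**
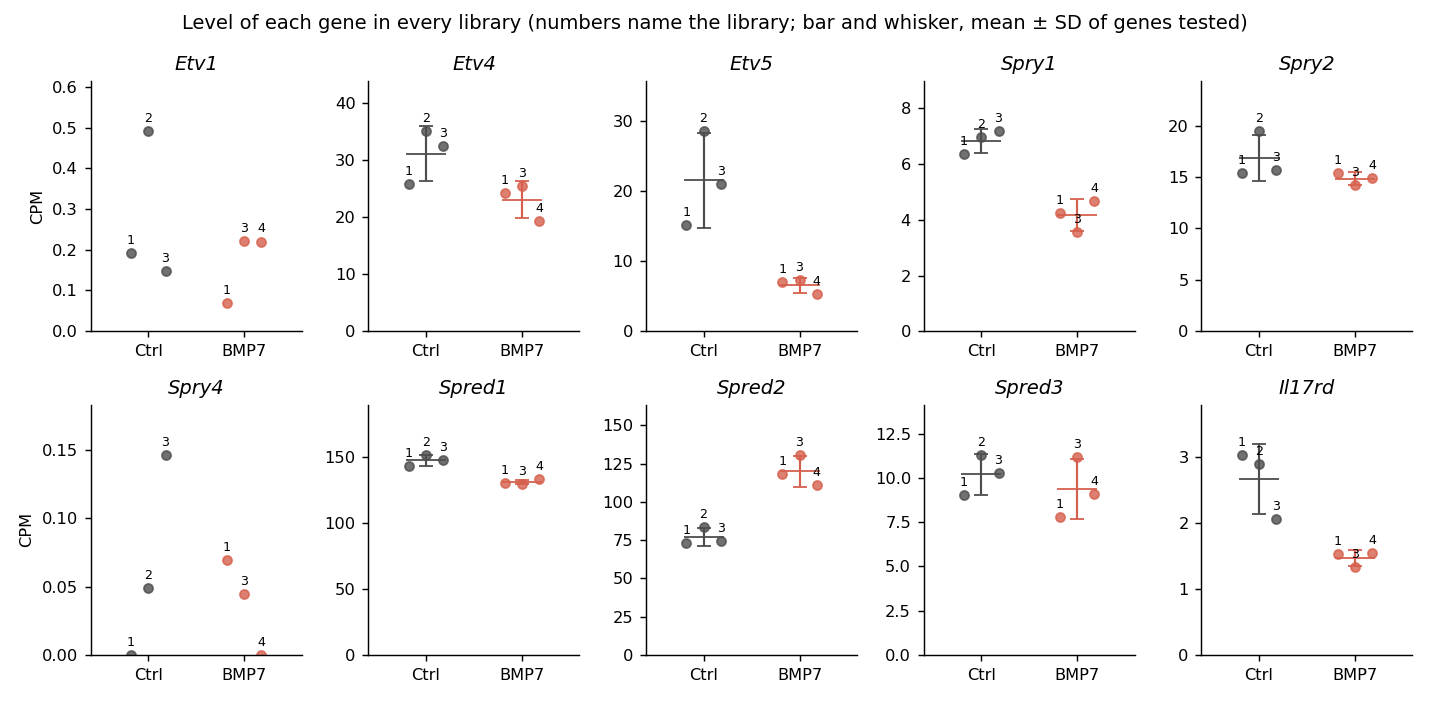
Level of each of the 10 genes in every library, in CPM (vertical axis starting at 0), for Ctrl (grey) and BMP7 (red) libraries named by number; horizontal bars and whiskers give the mean and SD (n = 3) for the 8 genes tested. The BMP7 points of *Etv5* sit between 5.34 and 7.24 CPM, below all Ctrl points, and those of *Spred2* sit between 110.9 and 130.8 CPM, above all Ctrl points.

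*Etv5* showed the largest difference of the 8 genes. This PEA3 factor (chr16:22200059-22258469, minus strand, in the annotation of the count table) was measured at 15.1, 28.5 and 20.9 CPM in Ctrl 1, 2 and 3. With BMP7 it was at 7.04, 7.24 and 5.34 CPM in libraries 1, 3 and 4. The lowest Ctrl library was thus above the highest BMP7 library, although the Ctrl libraries differed among themselves far more than the BMP7 libraries did. Mean levels were 21.5 ± 6.74 CPM in Ctrl and 6.54 ± 1.04 CPM with BMP7 (SD, n = 3), a 3.28-fold fall with a log2 fold change of -1.71 (SE 0.19, 95% interval -2.12 to -1.30, adjusted p = 1.01e-05 by edgeR). Beside this fit, 15 others were made with another tool, scaling, filter, threshold, block or set of libraries. *Etv5* was called in each of these that kept more than 1 BMP7 library, with log2 fold changes from -1.92 to -1.34. Adjusted p alone could not lose a call, because it only drops the fold change threshold.

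A pseudogene, Gm4798, holds a stretch that matches 1700 bases (42.8%) of an *Etv5* transcript at 98.6% identity. Fragments from this stretch may map to both genes, and those that did were left out of the counts, so the level of *Etv5* is uncertain to that extent. Gm4798 was counted at 56, 116 and 101 fragments in Ctrl and at 32, 44 and 27 with BMP7, and it fell as well (log2 fold change -1.24, SE 0.28, adjusted p = 0.00597 by edgeR). When its counts were added to those of *Etv5*, the log2 fold change was -1.62 (adjusted p = 1.58e-05 by edgeR). This sum does not bring back the fragments left out.

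The sequences upstream of the transcription start are shown for *Etv5*, the gene with the largest fall, and *Spred3*, which was not called, because in the windows searched only these 2 genes hold the Capicua core motif. RefSeq (GRCm38.p6) gave 10 windows of 250 bases before an annotated start for 8 of the 10 genes, with none for *Etv4* and *Spry4*. The motif was TGAATG, searched on both strands and shared by the longer Capicua sites TGAATGAA and TGAATGGA, which both overlap it; the motifs were picked with these genes in view. It occurs in 10.9% of 32851 such windows over all genes and occurs 3 or more times in 0.131% of them. The cutoff of 3 is the number found in the *Etv5* window shown, so the 0.131% is descriptive only. The *Etv5* window lies at chr16:22438369-22438618 (minus strand), inside the gene but outside its annotated exons, before the second of its starts, and the *Spred3* window lies at chr7:29168648-29168897 (minus strand), also outside annotated exons. Window positions are in GRCm38.p6, whereas gene positions elsewhere in the text follow the mm39 annotation of the count table. The 2 sets of positions cannot be compared directly. Both are printed 5′ to 3′ on the strand of the gene, with TGAATG or its reverse complement CATTCA in capitals.
Etv5: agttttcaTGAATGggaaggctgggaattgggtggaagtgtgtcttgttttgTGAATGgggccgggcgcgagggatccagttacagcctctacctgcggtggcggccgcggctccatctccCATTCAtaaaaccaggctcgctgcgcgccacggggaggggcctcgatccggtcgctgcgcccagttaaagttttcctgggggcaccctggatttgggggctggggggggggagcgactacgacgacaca
Spred3: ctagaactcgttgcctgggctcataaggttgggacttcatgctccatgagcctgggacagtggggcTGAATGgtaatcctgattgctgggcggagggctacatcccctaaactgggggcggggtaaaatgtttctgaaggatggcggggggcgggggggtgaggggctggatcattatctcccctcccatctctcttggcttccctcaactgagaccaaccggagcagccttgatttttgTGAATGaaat
In *Etv5* the core motif starts 242 and 198 bases before the start on the gene's strand and 129 bases before it on the other strand. No match in *Etv5* is part of either longer site, TGAATGAA or TGAATGGA. In *Spred3* it starts 184 and 10 bases before the start, and the latter match is part of the longer site TGAATGAA. The windows of *Etv1*, *Spry1*, *Spry2*, *Spred1*, *Spred2* and *Il17rd* and the other *Etv5* window hold no TGAATG. These matches describe letters in a window and are no evidence of binding.

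*Etv4*, the other abundant PEA3 factor (chr11:101660568-101676197, minus strand), was called lower too. It was measured at 25.8, 35.1 and 32.5 CPM in Ctrl 1, 2 and 3, and at 24.3, 25.5 and 19.3 CPM in BMP7 1, 3 and 4. The groups did not overlap, but Ctrl 1 and BMP7 3 were next to each other, and BMP7 4 was the lowest of all. The log2 fold change was -0.43 (SE 0.12, 95% interval -0.68 to -0.18, adjusted p = 0.0210 by edgeR). This call was lost without Ctrl 2 (log2 fold change -0.34, adjusted p = 0.140), without Ctrl 3 (-0.40, adjusted p = 0.0695) and without BMP7 4 (-0.32, adjusted p = 0.0855), all by edgeR. It was also lost when the column numbers were used as a replicate block (-0.23, adjusted p = 0.147) and when edgeR's glmTreat tested against a fold change of 1.2 (adjusted p = 0.300).

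The third PEA3 factor, *Etv1* (chr12:38829379-38920483, plus strand), was counted at 4, 10 and 3 fragments in Ctrl and at 1, 5 and 4 with BMP7. These counts overlap, and a difference was not detectable at this depth.

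Among the Sprouty genes, *Spry1* fell and *Spry2* was not called. *Spry1* (chr3:37694096-37698747, plus strand), an ERK-induced inhibitor of receptor tyrosine kinase signaling, was measured at 6.36, 6.98 and 7.19 CPM in Ctrl and at 4.25, 3.56 and 4.68 CPM with BMP7. All BMP7 libraries were below all Ctrl libraries, and the gap between the groups was wider than the range within either. The log2 fold change was -0.72 (SE 0.16, 95% interval -1.07 to -0.38, adjusted p = 0.00586 by edgeR), a 1.65-fold fall. The call was kept in each of the 6 fits that left out 1 library, with log2 fold changes from -0.82 to -0.61. Of its exon bases, 24.4% overlap the antisense gene Gm42922. Strand was not used in counting, so fragments touching this overlap could not be assigned and were left out of both counts. Gm42922 itself held 6 fragments in Ctrl 2, 1 in BMP7 3 and 0 in each of the others. With these counts added the log2 fold change of *Spry1* was -0.74, but adding them does not bring back the fragments left out.

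*Spry2* (chr14:106129381-106134253, minus strand), the more abundant Sprouty, was measured at 15.4, 19.5 and 15.6 CPM in Ctrl and at 15.4, 14.2 and 14.9 CPM with BMP7. Ctrl 2 stood above the other 5 libraries, which lay close together. The groups all but touched, with Ctrl 1 at 15.410 CPM and BMP7 1 at 15.403 CPM. Its log2 fold change was -0.19 (SE 0.11, adjusted p = 0.314 by edgeR), with a 95% interval from -0.42 to 0.05, and it was called in 0 of the 15 other fits. *Spry4*, a Sprouty often read as an FGF target, was counted at 0, 1 and 3 fragments in Ctrl and at 1, 1 and 0 with BMP7. Both groups were at or under the floor of 3 counts per library, which corresponds to 0.133 to 0.209 CPM, so no fold change is given.

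Of the Spred genes, *Spred2* alone was called, and it rose. *Spred2* (chr11:19874375-19974026, plus strand), which like its relatives carries neurofibromin to Ras at the membrane, was measured at 73.2, 83.8 and 74.3 CPM in Ctrl and at 118.3, 130.8 and 110.9 CPM with BMP7. Each BMP7 library was well above the highest Ctrl library. The rise was 1.56-fold (log2 fold change 0.64, SE 0.07, 95% interval 0.48 to 0.80, adjusted p = 1.38e-05 by edgeR). *Spred2* was called in each other fit that kept more than 1 BMP7 library, with log2 fold changes from 0.57 to 0.75.

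*Spred1* (chr2:116951855-117012760, plus strand), the most abundant of the 10 genes in Ctrl, was measured at 143.6, 151.8 and 147.8 CPM in Ctrl and at 130.5, 129.9 and 133.1 CPM with BMP7. The groups did not overlap and each was tight, but the difference was small. Its log2 fold change was -0.17 (SE 0.06, 95% interval -0.29 to -0.05, adjusted p = 0.0571 by edgeR), which passed neither threshold, and under upper-quartile scaling it passed the p threshold (adjusted p = 0.0354) but not that on the fold change.

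*Spred3* (chr7:28858254-28869836, minus strand), the least abundant Spred, was measured at 9.01, 11.3 and 10.3 CPM in Ctrl and at 7.81, 11.2 and 9.09 CPM with BMP7. It was the 1 tested gene of the 10 whose groups overlapped (exact two-sided permutation test p = 0.5), with a log2 fold change of -0.11 (SE 0.14, 95% interval -0.41 to 0.20, adjusted p = 0.690 by edgeR). It shares 3.25% of its exon bases with *Ggn* on the other strand. For the other 7 genes tested, the exact permutation test gave 0.1, which is the smallest p that 3 libraries against 3 allow.

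*Il17rd* (chr14:26760898-26829243, plus strand) was scarce, with 63, 59 and 42 fragments in Ctrl and 22, 30 and 28 with BMP7. In CPM these are 3.03, 2.90 and 2.05 in Ctrl and 1.53, 1.33 and 1.54 with BMP7. No BMP7 library reached the lowest Ctrl library, Ctrl 3, which was closer to the BMP7 libraries than to the other two Ctrl libraries. The log2 fold change was -0.86 (SE 0.26, 95% interval -1.41 to -0.31, adjusted p = 0.0360 by edgeR), a 1.82-fold fall. The call was kept in only 1 of the 6 fits that left out 1 library, that without Ctrl 3 (adjusted p = 0.0277), and the other 5 gave log2 fold changes from -0.91 to -0.76 with adjusted p from 0.0534 to 0.151. DESeq2 gave -0.86 with an adjusted p of 0.0565.

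**Figure D2:**
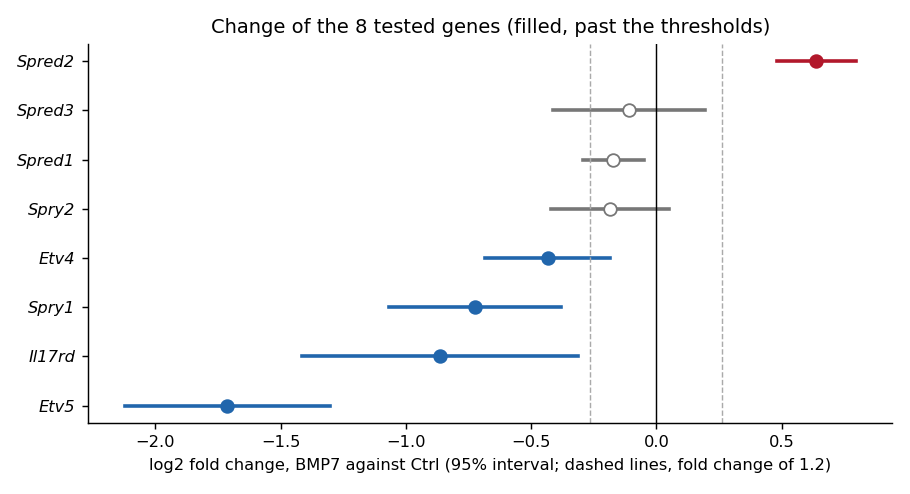
Log2 fold change of BMP7 against Ctrl for the 8 genes tested (horizontal axis; points with 95% intervals; filled points were called; dashed lines mark a fold change of 1.2). *Etv5* at -1.71, *Il17rd*, *Spry1* and *Etv4* lie to the left and *Spred2* at 0.64 to the right, while the intervals of *Spry2* and *Spred3* include 0.

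To set the genes beside each other, levels were divided by the summed exon length of each gene, as CPM per kilobase. The full length was used although fragments shared with Gm4798 or Gm42922 were left out. Levels of *Etv5* and *Spry1* on this scale may therefore be too low. In Ctrl the mean levels on this scale were 21.8 for *Spred1*, 16.7 for *Spred2*, 10.03 for *Etv4*, 8.07 for *Spry2*, 5.24 for *Etv5*, 2.35 for *Spry1*, 1.64 for *Spred3* and 0.242 for *Il17rd*, with *Etv1* at 0.0208 and *Spry4* at 0.0137. In this order the libraries of *Etv4* and *Spry2* overlapped, as did those of *Etv1* and *Spry4*, and all other neighbors were apart. With BMP7, *Spred2* at 26.0 CPM per kilobase was above *Spred1* at 19.3, the reverse of their order in Ctrl. *Etv5*, at 1.59 CPM per kilobase with BMP7, came down to the level of *Spred3* (1.504) and *Spry1* (1.43), whose libraries overlapped with its own. *Etv4* at 7.42 and *Spry2* at 7.11 CPM per kilobase again overlapped.

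Within each family the share of 1 paralog lay apart between the conditions in all libraries. Because of the fragments left out, the shares of *Etv5* and *Spry1* may be too low in both conditions. *Etv5* made up 30.6, 38.0 and 32.7% of the summed PEA3 level per kilobase in Ctrl 1, 2 and 3, and 18.0, 17.7 and 17.3% in BMP7 1, 3 and 4. *Spry1* made up 22.9, 20.5 and 24.7% of the Sprouty sum in Ctrl and 16.5, 15.2 and 18.4% with BMP7. *Spred2* made up 41.2, 42.9 and 40.7% of the Spred sum in Ctrl and 55.6, 57.5 and 53.2% with BMP7. *Etv5* and *Spry1* thus held a smaller share, and *Spred2* a larger one, in each BMP7 library than in any Ctrl library. The PEA3 sum was 12.004, 18.3 and 15.6 CPM per kilobase in Ctrl and 9.53, 9.99 and 7.55 with BMP7, and the Spred sum was 38.5, 42.3 and 39.5 in Ctrl and 46.1, 49.2 and 45.1 with BMP7. The summed Sprouty level was 9.57, 11.7 and 10.003 CPM per kilobase in Ctrl and 8.86, 8.03 and 8.76 with BMP7, so that the PEA3 and Sprouty sums lay lower and the Spred sum higher in all BMP7 libraries.

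The log2 ratio of 2 paralogs in the same library was compared between conditions for 3 pairs, and pairs with *Etv1* or *Spry4* were left out as too low. These ratios are of CPM not divided by exon length, so their signs need not follow the order per kilobase given above. The ratio of *Etv5* to *Etv4* was -0.57 ± 0.24 in Ctrl and -1.80 ± 0.03 with BMP7 (SD, n = 3), a difference of -1.23. For *Spry1* to *Spry2* it was -1.28 ± 0.18 in Ctrl and -1.82 ± 0.16 with BMP7, a difference of -0.54. For *Spred1* to *Spred2* it was 0.94 ± 0.07 in Ctrl and 0.13 ± 0.14 with BMP7, a difference of -0.81. In each pair the 3 ratios of one condition lay apart from those of the other, and the exact two-sided permutation test gave p = 0.1 (adjusted p = 0.1 over the 3 pairs), the smallest this design can give.

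**Figure D3:**
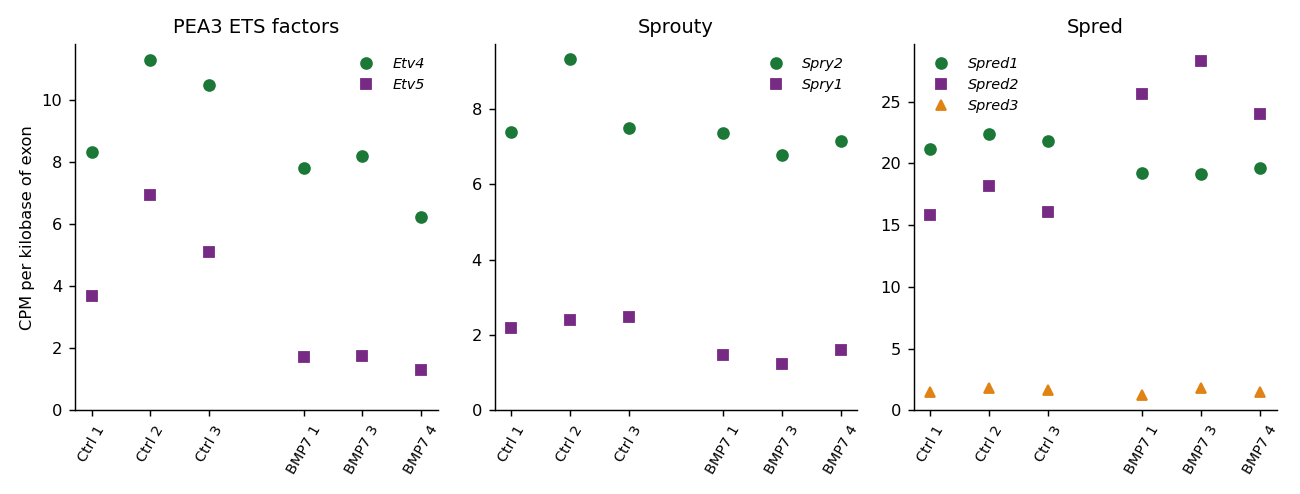
Level per length (CPM per kilobase of exon, vertical axis starting at 0) of the tested PEA3, Sprouty and Spred genes in each of the 6 libraries (horizontal axis). *Etv5* drops from between 3.67 and 6.95 in Ctrl to between 1.30 and 1.77 with BMP7, *Spred2* is below *Spred1* in all Ctrl libraries and above it in all BMP7 libraries, and *Spred3* stays low throughout.

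Genes of the FGF-ERK pathway around these feedback genes were described from a list of 68 genes grouped by role. Of the 60 high enough to test, 9 (15.0%) rose with BMP7, 4 (6.67%) fell and 47 were not called, beside 5.99% and 5.38% of all genes tested, so that the share that fell was near that of all genes. By adjusted p alone, 13 of the 60 were higher and 4 lower, beside 7.33% and 6.42% of all genes tested. The median log2 fold change of the 60 was -0.01. Most of the signaling chain itself was not called, and neither were 13945 of all 15733 genes tested. Of 8 FGF ligands listed only 3 were high enough to test, and none was called by edgeR or DESeq2, with 1 at an unadjusted p under 0.05. *Fgf1* was at 33.0 ± 2.20 CPM in Ctrl and 27.7 ± 2.16 CPM with BMP7 (SD, n = 3; log2 fold change -0.25, adjusted p = 0.0629 by edgeR), and *Fgf2* (-0.39) and *Fgf7* (-0.12), which in the gland come from the stroma, were below 3 CPM in all libraries.

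Of the FGF receptors, *Fgfr3* rose from 3.23 ± 0.37 CPM to 9.71 ± 0.64 CPM (log2 fold change 1.58, SE 0.15, adjusted p = 1.80e-06 by edgeR). *Fgfr2*, the receptor that the study deleted in mammary cells, rose from 92.3 ± 5.99 to 119.8 ± 2.22 CPM (log2 fold change 0.38, SE 0.06, adjusted p = 5.79e-04 by edgeR). *Fgfr1*, the most abundant receptor by CPM at 321.2 CPM in Ctrl and 295.7 CPM with BMP7, was not called (-0.12), nor was the decoy-like receptor *Fgfrl1* (0.25). The receptors that were called thus rose while *Etv5*, *Etv4*, *Spry1* and *Il17rd* fell in the same libraries.

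Downstream of the receptors, 0 of 10 adapters, 0 of 7 Ras genes and regulators and 0 of 11 members of the kinase cascade were called by edgeR or by DESeq2. By adjusted p alone in edgeR, 0 adapters, 1 of the Ras genes and regulators and 2 members of the kinase cascade were higher, and 0 of them lower. Over all genes tested these shares were 7.33% and 6.42%. At an unadjusted p under 0.05 there were 0 adapters, 3 Ras genes and regulators (2 higher and 1 lower) and 5 members of the kinase cascade, all higher. Over all genes tested, 13.1% were higher and 13.1% lower at this p. The log2 fold changes of the kinase cascade ran from -0.36 to 0.23. Among 6 ERK phosphatases, *Dusp6*, which like the PEA3 genes is induced by FGF and removes phosphate from ERK, fell (log2 fold change -0.65, SE 0.10, adjusted p = 2.33e-04 by edgeR). It was at 44.7, 61.6 and 54.6 CPM in Ctrl and at 33.1, 36.5 and 32.6 CPM with BMP7, so that the groups did not overlap. *Dusp1*, a phosphatase of stress kinases as well, rose (0.47).

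ERK-induced transcription factors and early genes did not go one way. Of 9 tested, *Junb* (log2 fold change 1.39), *Phlda1* (0.94) and *Fos* (0.54) rose, and *Egr2* (-1.01), *Ccnd1* (-0.39) and *Egr1* (-0.36) fell. By edgeR 33.3% were thus called higher and 33.3% lower, beside 5.99% and 5.38% of all genes tested. *Junb* is also known as a gene induced by BMP and TGF-beta ligands. The Ctrl and BMP7 libraries of *Ccnd1* and *Egr1* overlapped.

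Of 7 regulators of PEA3 factors, 3 were called higher and none lower in edgeR or DESeq2. Over all genes tested, edgeR called 5.99% higher and 5.38% lower, and DESeq2 5.89% and 4.70%. At an unadjusted p under 0.05 by edgeR, 4 of the 7 regulators were higher and 0 lower, beside 13.1% and 13.1% of all genes tested. *Trib1*, a pseudokinase that brings substrates to COP1, rose from 41.4 ± 3.64 to 75.6 ± 7.81 CPM (log2 fold change 0.87, SE 0.09, adjusted p = 1.96e-06 by edgeR). *Cic* was at 349.4, 364.7 and 401.9 CPM in Ctrl and at 466.3, 501.8 and 449.1 CPM with BMP7, without overlap, and rose (0.34, adjusted p = 0.00232 by edgeR). *Atxn1*, whose product partners with Capicua, rose as well (0.44, adjusted p = 0.00179 by edgeR). *Cop1* itself was not called (-0.06). *Cic*, *Atxn1* and *Cop1* were named after their values were seen. Of the 3 regulators of Sprouty proteins none was called by edgeR or DESeq2, with 0 at an unadjusted p under 0.05.

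**Figure D4:**
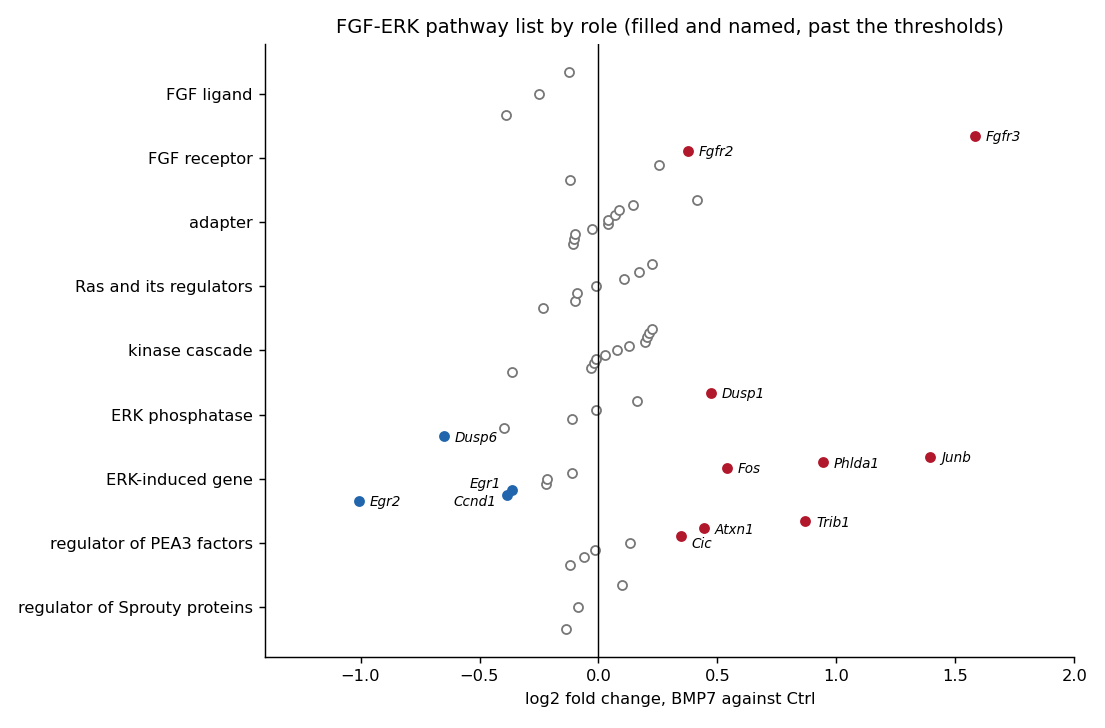
Log2 fold change of BMP7 against Ctrl (horizontal axis) for the 60 tested genes of the FGF-ERK list, grouped by role (vertical axis), with called genes filled and named and the others open. Called genes are in the receptors, ERK phosphatases, ERK-induced genes and regulators of PEA3 factors, from *Egr2* at -1.01 to *Fgfr3* at 1.58, and the adapters, Ras genes and kinase cascade show open points only.

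For ETS factors outside the PEA3 group, 18 of 23 listed genes could be tested. Of these, 4 (22.2%) were called higher and 0 lower, beside 5.99% and 5.38% of all genes tested. The median log2 fold change of the 18 was -0.04. By edgeR 4 were lower at an unadjusted p under 0.05, as were 13.1% of all genes tested, and DESeq2 called 4 higher and 0 lower. *Erf*, an ETS repressor that ERK exports from the nucleus, was at 192.1, 213.5 and 224.7 CPM in Ctrl and at 413.4, 402.1 and 336.3 CPM with BMP7, a 1.83-fold rise (log2 fold change 0.87, SE 0.08, adjusted p = 1.00e-06 by edgeR). *Erg* rose from 1.33 ± 0.13 to 4.16 ± 1.11 CPM (1.65), and *Ets2* (0.33) and *Elk3* (0.30) rose by less.

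The genes whose profiles over the 6 libraries were most like those of the called feedback genes were sought among the 14100 genes averaging 1 CPM or more, by the root mean square difference of centered log2 CPM. For *Spred2* these were *Cblb* (0.0375), *Trp63* (0.0476) and *Ecm1* (0.0620). *Cblb* encodes a ubiquitin ligase acting on receptor tyrosine kinases and *Trp63* the basal epithelial factor p63. For *Etv5* they were Gvin-ps7 (0.217), *Ppargc1b* (0.243) and *Duox2* (0.244), all farther away than the nearest genes of the others. For *Etv4* they were Gm21092 (0.0386), *Egr1* (0.0403) and *Arid5a* (0.0662), of which *Egr1* is itself an early ERK-induced factor of the pathway list. For *Spry1* they were *Pvt1* (0.0602), *Gtdc1* (0.0627) and *Noxo1* (0.0775), and for *Il17rd* they were *Psapl1* (0.0898), Gm10687 (0.110) and *Cldn23* (0.111).

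Markers of other cell types differed between the BMP7 libraries. The counts of called markers stand beside 5.99% of all genes tested called higher and 5.38% lower. The summed level of 12 adipocyte markers, of which 8 of the 9 tested were higher, was between 25.9 and 37.4 CPM in Ctrl, 40.4 CPM in BMP7 1, and 110.0 and 95.8 CPM in BMP7 3 and 4. For 12 macrophage markers, of which 2 of the 9 tested were lower, the sum was between 50.1 and 54.5 CPM in Ctrl, 53.1 CPM in BMP7 1, and 28.0 and 26.7 CPM in BMP7 3 and 4. BMP7 1 was thus close to Ctrl in both sums, with *Pparg* at 0 in Ctrl 3 and no macrophage marker at 0. The 10 fibroblast markers (4 higher and 1 lower of 7 tested) summed to between 115.3 and 126.5 CPM in Ctrl and between 102.7 and 122.1 CPM with BMP7. Of 8 endothelial markers, *Pecam1* alone was high enough to test and was higher, and the sum was between 13.5 and 16.0 CPM in Ctrl and between 24.3 and 26.3 CPM with BMP7. Nearly all of this sum was *Pecam1* (14.4 CPM in Ctrl and 24.6 CPM with BMP7), while *Cdh5* was at 0.163 and 0.160 CPM and *Cldn5* was at 0 in every library but BMP7 4, where it had 1 count. *Etv5* at 7.04 CPM, *Spry1* at 4.25 CPM, *Il17rd* at 1.53 CPM and *Spred2* at 118.3 CPM in BMP7 1 each lay between the values of BMP7 3 and 4, and so did *Etv4* at 24.3 CPM. With BMP7 1 as the sole BMP7 library, log2 fold changes were -1.61 for *Etv5*, 0.62 for *Spred2*, -0.68 for *Spry1*, -0.79 for *Il17rd* and -0.36 for *Etv4*. These are values of 1 library against Ctrl, whose spread would come from the Ctrl libraries alone, and they are given without a test.

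**Figure D5:**
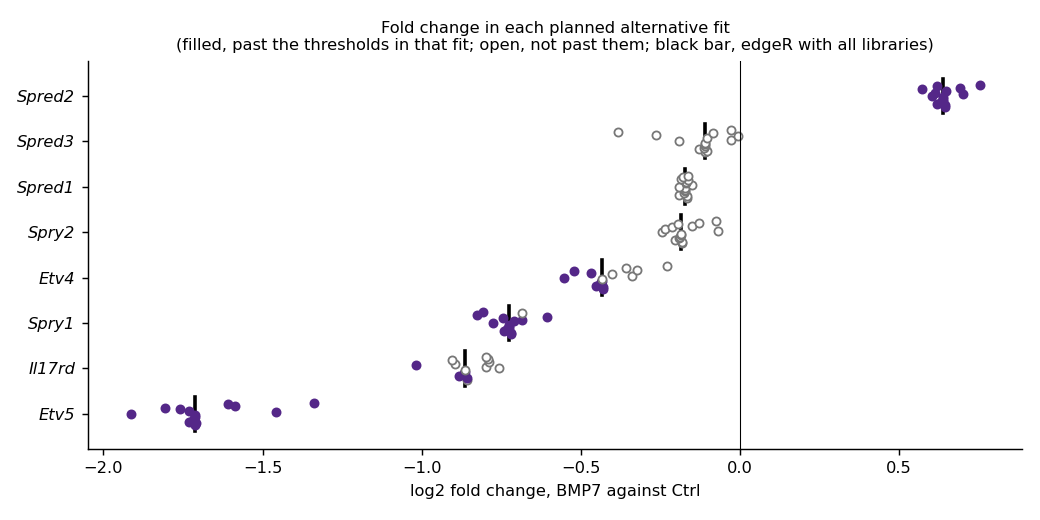
Log2 fold change of BMP7 against Ctrl (horizontal axis) for each of the 8 genes tested (vertical axis) in the 15 fits with another tool, scaling, filter, threshold or set of libraries, filled where the gene was called in that fit and open where it was not; the black bar is edgeR with all libraries. Leaving aside the fit with BMP7 1 as the sole BMP7 library, where the spread comes from Ctrl alone, all points of *Etv5*, *Spred2* and *Spry1* are filled. *Etv4* is called in 9 and *Il17rd* in 6 of 15 fits, and no point changes direction. The 9 and the 6 include adjusted p alone, which cannot lose a call made by edgeR with all libraries.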

How the data were processed

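HC11 libraries of both conditions (3 with BMP7, 3 Ctrl) were grouped by the treatment in their labels. The authors aligned read pairs with subjunc and assigned fragments to exons, summed by gene name, with featureCounts (2.0.1 in the file header), and deposited these counts without normalization. The header names an mm39 annotation, the methods mm10, and strand was not used. Fragments of several places or genes were left out.

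Counts were analyzed in R 4.3.3 with edgeR 4.0.16 (filterByExpr, TMM, quasi-likelihood test, Benjamini-Hochberg adjustment over 15733 genes). A standard error is the log2 fold change over the root of the test's F. Exact permutation tests used log2 CPM with a prior count of 2. Common biological variation was 0.0696, with 4 residual degrees of freedom, and libraries of one condition differed by more than counting noise. BLAST 2.17.0 was used to find near-identical copies in GENCODE vM21 transcripts, at 95% identity over at least 100 bases.

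The 10 genes, the lists and the motifs were chosen with earlier results of these data known. Beside the 10 genes, the text names the tested FGF ligands and receptors, the up to 6 largest rises and falls past the thresholds in the pathway and ETS lists, *Id1* and *Id3*, and the 3 nearest profiles of each called gene. Markers, Gm4798, Gm42922, *Ggn*, *Spi1*, *Elk4*, *Cic*, *Atxn1* and *Cop1* fall outside this rule. Alternatives were DESeq2 1.42.0, RLE and upper-quartile scaling, no filter, at least 10 counts in every library, adjusted p alone, glmTreat, leaving out each library, BMP7 1 alone, a replicate block, and, added after seeing the data, the counts of Gm4798 and Gm42922. The code was tested on simulated data.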

Additional observations from a re-analysis of the deposited data

How the results depend on the processing

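Leaving aside BMP7 1 alone, *Spred2* was the 1 gene of the 10 called higher in every alternative fit, and no fold change of the 8 genes tested turned direction. The 4 lower genes became 2 with glmTreat, 2 with the replicate block, and 2 to 3 when 1 library was left out (2 without Ctrl 2 or BMP7 4). Calls over all genes moved too, from 942 higher and 846 lower to 494 and 254 with glmTreat. Leaving out 1 library gave 723 to 1081 higher and 563 to 902 lower over all genes. Over all genes they were 1153 and 1010 by adjusted p alone, 870 and 983 with upper-quartile scaling, and 1042 and 1040 without the filter. Of the pathway list, the 9 higher genes became 13 by adjusted p alone. With glmTreat the 9 higher genes became 4 and the 4 lower genes 2. Leaving out 1 library gave 8 to 10 higher and 2 to 6 lower (2 without Ctrl 2, Ctrl 3 or BMP7 1, and 6 without Ctrl 1). Of the other ETS factors, the 4 higher became 2 with glmTreat, and the 0 lower became 2 with upper-quartile scaling, 1 without the filter, 1 by adjusted p alone and 0 to 1 when 1 library was left out (1 without Ctrl 1, BMP7 1 or BMP7 4). The cause of these moves was not tested. Same-numbered columns share only a number: their deviations correlated at -0.01 and 0.12 for numbers 1 and 3, and the replicate block, with 1 residual degree of freedom, called 1152 genes higher and 959 lower against 942 and 846. It ended the calls of *Etv4* and *Il17rd* (-0.80, adjusted p = 0.132 by edgeR) and of no other gene of the 10. *Il17rd*, with 22 to 63 fragments per library, *Etv1* and *Spry4* were limited by depth.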

Other observations

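Ctrl 2 held the highest Ctrl level for 6 of the 8 feedback genes tested, against 32.6% of all genes tested. For *Etv5* it was at 28.5 CPM, beside 15.1 and 20.9 CPM in Ctrl 1 and 3. Without Ctrl 2 the log2 fold change of *Etv5* was -1.46 (adjusted p = 8.20e-05 by edgeR) and that of *Spry2* was -0.07. The origin of this difference between Ctrl libraries was not tested.

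Other motifs were searched in the same windows. The ETS motif CCGGAAGT, present in 2.88% of all windows, was in none of those of the 8 genes. The GC-rich SMAD motif GGCGCC, present in 9.59% of all windows, was in the window of *Spred1*, starting 37 bases before the start, and in the first window of *Etv5*, starting 231 bases before it. *Spi1*, a macrophage ETS factor, was not called (log2 fold change -1.38, adjusted p = 0.0505 by edgeR). *Elk4*, another of the ETS factors listed, passed the p threshold but not that on the fold change (-0.25, adjusted p = 0.0253 by edgeR).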
